A study of Mus musculus with 20 samples.

Results

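Heat shock proteins and DnaJ chaperones were followed in the blood of tumour-inoculated mice through 99 array probes, of 135 on the array whose gene name began with Hsp, Dnaja, Dnajb, Dnajc or Cct. The 99 were those whose Cy5 signal the scanner software marked as well above background on 4 or more of the 20 arrays. All 99 were also measured on at least 3 arrays of each day, and they stand for 62 of the 73 genes matched by name. The fit covered 20920 of 41174 probes on the array. The rule used names and brightness, not changes, and 75 of the 99 probes were well above background on all 20 arrays. The other 36 probes, among them those of the muscle small heat shock proteins Hspb2, Hspb3, Hspb6 and Hspb7, were below that brightness and are not described further. One name match is no chaperone gene under its current symbol: the probe called Hspc171 by the array is now Tmem208.

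The mice were 4 female C57Bl/6 animals, numbered 305, 310, 315 and 320. Each was bled before inoculation (day 0) and 10, 15, 20 and 25 days after Hepa1-6 cells, a mouse hepatoma line, had been placed under the skin. No mouse was left uninoculated, so day 0 is the only control, and the same animals were older at each later day. The labels call the tissue of every sample blood with Hepa1-6 cells, day 0 included. On each 2-colour array the RNA of 1 mouse and day carried Cy5, and a common reference, blood of untreated female C57Bl/6 mice, carried Cy3. Dyes were not swapped. The 4 arrays of a day shared 1 slide, so slide and day cannot be told apart. The values below are log2(Cy5/Cy3), on which a difference of 1 is a 2-fold change, and the values of the 4 mice are given in the order 305, 310, 315, 320. A probe is called where limma's adjusted p, corrected over all 20920 probes, was under 0.05. Whole blood mixes cell types, so fewer cells of a type and less RNA per cell cannot be told apart.

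Chaperones bind unfolded stretches of other proteins and help them to fold, assemble or be degraded. HSP70 proteins do this in cycles of ATP hydrolysis that J-domain proteins (the DnaJ families A, B and C) start and nucleotide exchange factors such as HSP110 end. HSP90 acts on signalling proteins late in their folding, the CCT ring folds actin and tubulin, and HSPD1 with HSPE1 forms the folding chamber of mitochondria. Some members (Hspa1a, Hspa1b, Hspb1, Dnajb1) are switched on by heat shock factor under stress, while others are made at all times. Maturing red cells use chaperones heavily while they make haemoglobin.

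Between 37.7% and 51.2% of the 45018 spots of an array were well above background in Cy5. The median Cy5 signal over background lay between 48.9 and 67.6 on the day 0 arrays and between 12.6 and 28.4 on the later ones. The mean log2 ratio of the spike-in controls also moved with the day, from -0.65 on day 0 through -0.09, -0.31 and -0.49 to -1.16 on day 25. Their part in the results below was not tested. Markers of neutrophils, red cells, platelets, monocytes, T, B and cytotoxic cells were well above background on at least 1 array for every listed gene on the array. Of 10 liver and hepatoma genes on the array, Apoa1 and Igf2 were well above background on none.

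Chaperone transcripts did not move as 1 group. At day 10 against day 0, 14 of the 99 probes were called, 2 higher and 12 lower, where 11.2% of all probes were called (4.08% higher, 7.12% lower). The 2 that rose belong to J-domain genes, Dnaja4 and Dnajb6, and the 12 that fell spread over the HSP70, HSP90, CCT, mitochondrial and DnaJ families. At day 15 there were 6 calls, 3 in each direction, against 5.87% of all probes (2.03% higher, 3.84% lower). Day 20 gave 3 calls, 2 higher and 1 lower, against 2.9% (0.918% higher, 1.98% lower), and day 25 gave 0 by limma, against 0.148% (0.0382% higher, 0.11% lower), with 18 members at an unadjusted p under 0.05. These 4 comparisons share the day 0 arrays. Day 25 against day 10 gave the most calls of these 5 comparisons: 41 of 99, 27 higher and 14 lower, against 31.5% of all probes (17.7% higher, 13.8% lower). The test for any change from day 0 called 42 of 99, against 27%. The members' median change, -0.04 at day 10 and 0.05 at day 25 against day 10, lay near that of the other 20821 probes, -0.02 and 0.03.

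Calls went with brightness, in a split added after the data were seen. All 14 calls of day 10, and 34 of the 41 of day 25 against day 10, fell on the 50 members at or above the members' median brightness (8.28 on the log2 intensity scale). Among all 8097 probes of that brightness 26.4% were called at day 10, beside 28% of the 50 members. The shares at day 25 against day 10 were 53.4% of all such probes and 68% of the members. Below that brightness 14.3% of the 49 members and 17.6% of all probes were called at day 25 against day 10. The members' share of calls therefore lay near that of equally bright probes at day 10. A finer split was made for day 25 against day 10. There 3 of 33 members below 8 were called (13.7% of all probes) and 10 of 33 from 8 to 9 (36.9%). Of the brighter members, 12 of 15 from 9 to 10 (58.5%), 11 of 13 from 10 to 11 (68.9%) and 5 of 5 from 11 up (71.1%) were called. The members' share lay below that of all probes in the dimmer classes and above it in the brighter ones.

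**Figure D1:**
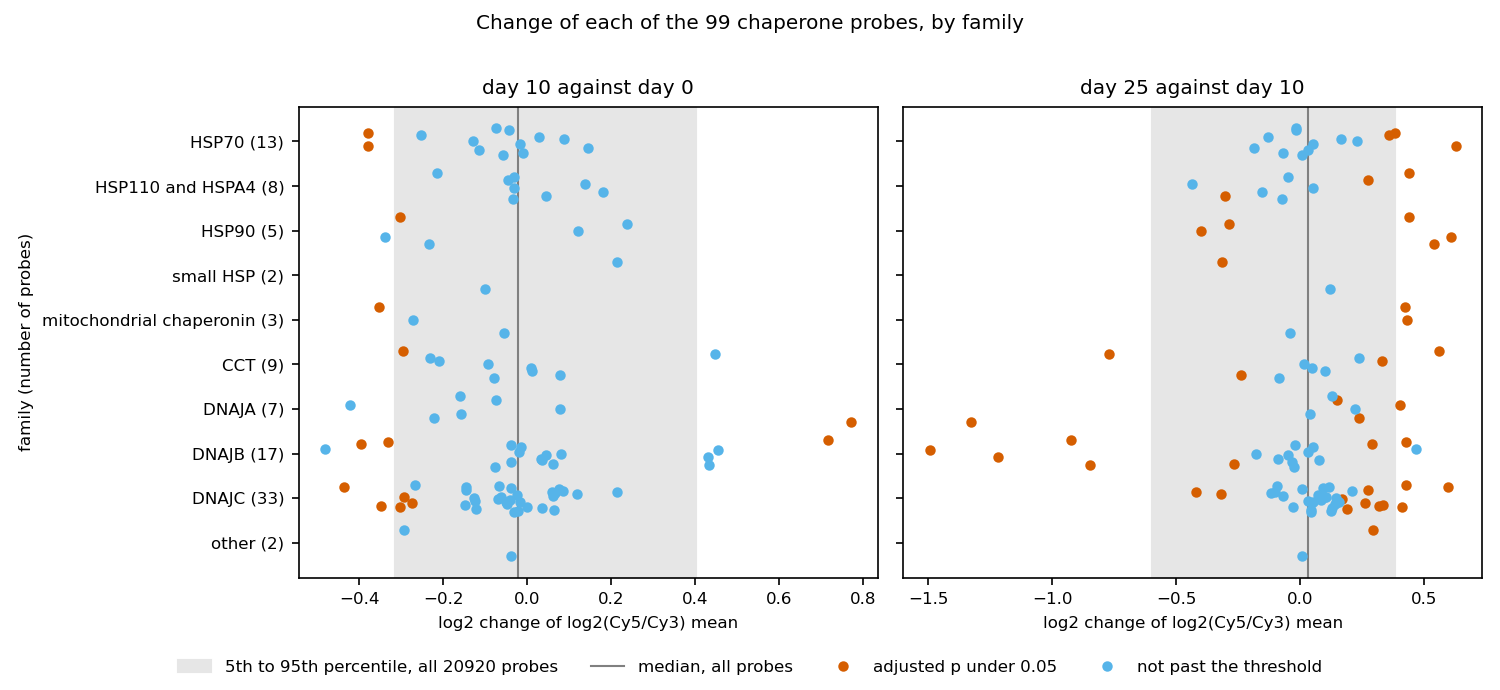
Change in the mean log2(Cy5/Cy3) of each chaperone probe (points, 4 mice per day) by family, for day 10 against day 0 and day 25 against day 10; orange points passed limma's adjusted p threshold of 0.05, the grey band spans the 5th to 95th percentile of all 20920 probes and the line is their median. At day 25 against day 10, 1 Dnaja4, 1 Dnajb2 and 3 Dnajb6 probes and Cct7 lie left of the band.

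Counts against day 0 rested on few arrays. Leaving out 1 array at a time gave 3 to 23 calls at day 10. The count was 3, 8, 5 and 23 without the day 0 array of mouse 305, 310, 315 and 320, and 4, 5 and 6 without the day 10 array of mouse 305, 315 and 320. At day 15 it was 3 without the day 0 array of mouse 305 or 315 or the day 15 array of mouse 315, 13 without mouse 320's day 0 array and 2 without mouse 320's day 15 array. At day 20 it was 15 without mouse 305's day 20 array and 0 without that of any other mouse. It was also 0 without the day 0 array of mouse 305 or 310, 8 without that of mouse 320, and 1 without the day 0 or day 10 array of mouse 315 or the day 15 array of mouse 305, 315 or 320. At day 25 it was 15 without mouse 310's day 25 array, 3 without mouse 305's day 0 array, and 1 without mouse 305's day 10 or mouse 315's day 20 array. Calls of any change numbered 24 without mouse 305's day 10 array and 27 without mouse 315's day 10 or day 25 array. With the mouse as a block, 2 probes were called at day 25 (a Dnajb2 and a Dnajb6 probe, both lower). The range at day 25 against day 10 was 32 to 44, and 30 of the 41 calls passed whichever array was left out. Only 4 of the 41 also held in every alternative processing setting, and 0 of the 14 calls of day 10 did by limma.

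The split between higher and lower calls depended on the scaling. The main values were normalized by loess, which sets the typical ratio to 0 at every brightness on every array. With loess the median change of all probes was -0.02 at day 10, -0.015 at day 15, -0.02 at day 20, -0.002 at day 25 and 0.03 at day 25 against day 10. With each array centred on its median instead it was -0.40, -0.29, -0.23, -0.006 and 0.39. Median centring called 57 members at day 10, all lower, and 58 at day 25 against day 10, of which 57 were higher. The count of all probes called also shifted between settings, so these counts do not describe the chaperones alone. The shift grew with brightness: at day 25 against day 10 the median of all probes was 0.11 below a brightness of 8 and 1.46 between 10 and 11. Under median centring 12 of the 14 lower calls of day 25 against day 10 lay above 0, and the 2 rises of day 10 lay below 0. Set against the median of probes in the same brightness class, all 27 and 14 calls kept their direction. So did the 2 and 12 of day 10. That comparison was chosen after the data were seen and largely repeats the step that loess takes. Its outcome was therefore close to fixed in advance and is no separate evidence for the directions. With the scanner software's own log ratios the split was 12 higher and 18 lower at day 10, with no background correction 11 and 29, and with the Cy5 channel alone 4 and 22. At day 15 these 3 settings gave 16 and 28, 11 and 25, and 5 and 21. At day 20 they gave 4 and 7, 2 and 12, and 3 and 21. Scaling between arrays ended the day 10 calls of Dnaja4, Dnajb6, Dnajb1, Dnajc7, Dnajc9, Dnajc19, Cct5, Hsp90aa1, Hspa8, Hspa14 and Hspd1, and the scanner's ratio those of Dnajb1, Dnajc7, Dnajc19, Hspa8 and Hspa14. A fit to only the days compared ended the day 10 calls of all but Hspa8 and Hspa14. At day 25 against day 10, scaling between arrays ended the rises of Dnajb1, Hsp90aa1, Hspa8, Hspa14, Hspd1, Hspe1, Hsph1, Cct2 and Cct5. It also ended the rises of Hsp90b1 A_52_P624149 and Dnajc9 A_51_P162471 and the falls of Cct7, Cct8, Dnajc8 and Hsp90ab1. Every direction below is therefore a change relative to probes of like brightness.

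**Figure D2:**
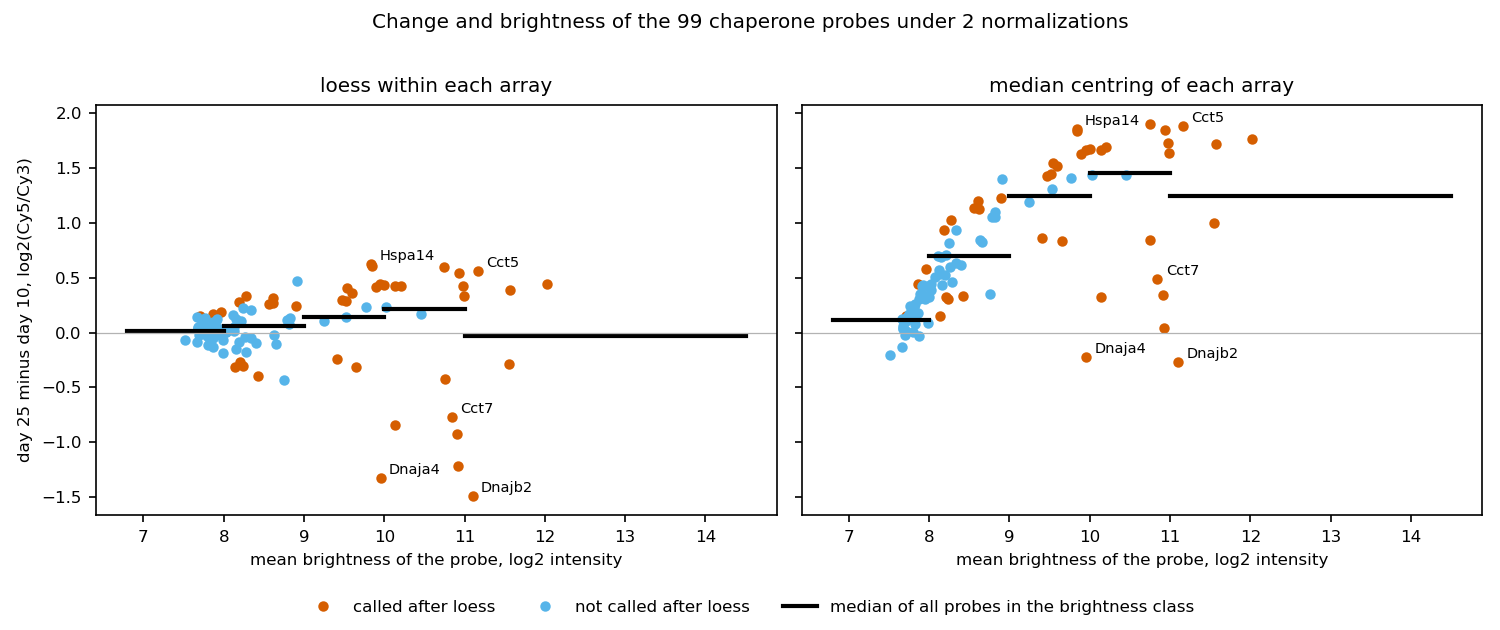
Day 25 minus day 10 change in log2(Cy5/Cy3) of the 99 chaperone probes against their mean brightness, after loess (left) and after median centring (right); orange probes were called after loess, and black lines mark the median of all probes in 5 brightness classes. After median centring the Dnaja4 (-0.22) and Dnajb2 (-0.27) probes stay below 0 and lie far below the line of their class, while most bright probes lie above 1.

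Among the 5 comparisons with day 0 or day 10, the largest called changes were falls of 3 J-domain genes, Dnajb6, Dnaja4 and Dnajb2, between day 10 and day 25. Dnajb6 and Dnaja4 had risen at day 10 by the loess values. DNAJB6 keeps aggregation-prone proteins in solution, DNAJA4 is a cytosolic partner of HSP70, and DNAJB2 hands HSP70 clients to the proteasome. The Dnajb6 probe A_51_P117439 stood at -0.54, -0.11, -0.09 and 0.36 on day 0. On day 10 it stood at 0.65, 0.69, 0.66 and 0.51, above every day 0 value, and on day 15 at 0.57, 0.61, 0.70 and 0.68. On day 20 it was at 0.15, 0.66, 0.77 and 0.46, with mouse 305 below the highest day 0 mouse, and by day 25 it was back among the day 0 values at -0.53, -0.05, -0.46 and -0.15. Its rise was 0.72 (SE 0.15, 1.64-fold, limma adjusted p = 0.00699) at day 10, 0.73 (adjusted p = 0.00729) at day 15 and 0.60 (adjusted p = 0.0403) at day 20, each in 4 of 4 mice. That rise was relative to the reference channel: with Cy5 alone the same probe changed by -0.30, -0.00 and -0.23, and with median centring by -0.80, -0.68 and -0.33, none of them past the threshold. Without any 1 array its day 10 call kept an adjusted p of at most 0.0303, whereas leaving out any of 10 single arrays ended the day 20 call (adjusted p up to 0.152).

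Another Dnajb6 probe, A_52_P630493, rose by 0.53 (SE 0.14, adjusted p = 0.0331) at day 15, a call that ended without any of the day 0 arrays of mouse 305, 310 or 315 or the day 15 arrays of mouse 310, 315 or 320 (adjusted p up to 0.151). At day 10 its change was 0.43 (adjusted p = 0.0602, and 0.0206 with the mouse as a block), and at day 20 it was 0.42 (0.0985, and 0.0377 with the block). The third, A_52_P276935, stood 0.43 above day 0 at day 10 (adjusted p = 0.122, and 0.0328 with the block) and 0.44 above it at day 15 (0.193, and 0.0438 with the block). All 3 then fell at day 25 against day 10, by 0.92, 0.85 and 1.22 (adjusted p = 0.000372, 0.000452 and 0.000154), in 4 of 4 mice each. The fall of 1.22 is 2.33-fold. At day 25 A_52_P276935 was also 0.79 below day 0 (adjusted p = 0.0671, and 0.0102 with the mouse as a block).

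Dnaja4 stood at -0.25, -0.12, 0.06 and 0.74 on day 0 and at 0.90, 0.78, 1.02 and 0.81 on day 10, every mouse above the highest day 0 mouse. Days 15 and 20 gave 0.25, 0.64, 0.60, 0.65 and 0.14, 0.58, 0.68, 0.52, all within the day 0 range, with means between those of days 0 and 10. On day 25 it was at -0.74, -0.17, -0.67 and -0.22, below every day 10, 15 and 20 value. The rise at day 10 was 0.77 (SE 0.18, adjusted p = 0.0116), lost without mouse 305's day 0 array (adjusted p = 0.0561) and -0.55 with median centring. The fall from day 10 to day 25 was 1.33 (SE 0.18, 2.51-fold, adjusted p = 0.000103). Dnajb2 had no call against day 0 at days 10, 15 and 20, with values of 0.25, 0.49, 0.81 and 0.71 on day 10 overlapping the day 0 range of -0.32 to 0.70. Its day 25 values, -1.18, -0.43, -1.22 and -0.88, lay below all others, and it fell by 1.50 against day 10 (SE 0.21, 2.82-fold, adjusted p = 0.000126). Against day 0 that is a change of -1.04, which missed the threshold (adjusted p = 0.0523) and passed it with the mouse as a block (0.0108). With median centring the fall from day 10 was 0.27 for Dnajb2 and 0.22 for Dnaja4, neither called, and the 3 Dnajb6 probes turned to 0.34, 0.32 and 0.04. Scaling between arrays also ended the calls of all 5 probes over that span.

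**Figure D3:**
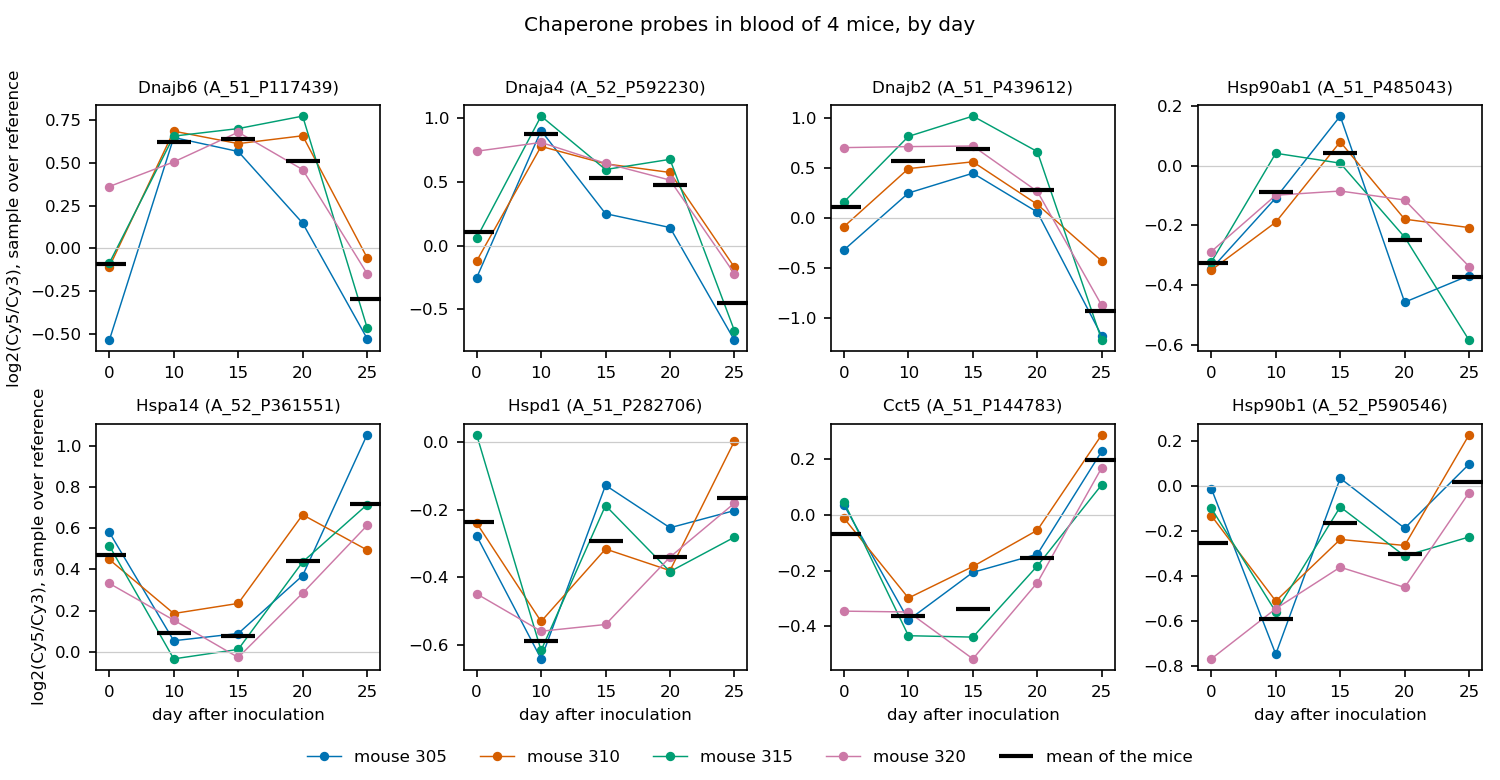
Log2(Cy5/Cy3) of 8 chaperone probes on each day (days spaced as categories), 1 coloured line per mouse and a black bar for the mean of the 4 mice. Dnajb6, Dnaja4 and Dnajb2 stand highest in the mean between days 10 and 20 and lowest on day 25, while Hspa14, Hspd1, Cct5 and Hsp90b1 stand lowest on day 10 or 15.

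The start of Dnajb6 carries a heat shock element, the binding motif of heat shock factors. A motif of 3 alternating units of GAA and TTC with 2 bases between units, on either strand, was found in the windows of 4 of 51 member genes with a promoter entry, Dnajb6, Hspd1, Hspe1 and Hsph1, and in 0.66% of 27025 genes. The windows run from 250 bases before to 50 bases after each start, on RefSeq's GRCm38.p6. The shorter 2-unit form, GAANNTTC or TTCNNGAA, which the longer one contains, was in 15 of the 51 and in 16.97% of all genes. Dnaja4 has 2 matches to it. In Hsph1 the 3-unit match lies after the start. By the loess values, 1 of 3 Dnajb6 probes and the Dnaja4 probe were called higher at day 10, and all these probes fell by day 25. The other carriers of the 3-unit form moved the other way over that span: Hspe1, Hsph1 and 1 of 2 Hspd1 probes rose from day 10 to day 25. For Dnajb6 and Dnaja4 the 100 bases before the start are shown, with the matches in capitals (chr5:29735798-29735897 and chr9:54699459-54699558, both plus strand).
Dnajb6: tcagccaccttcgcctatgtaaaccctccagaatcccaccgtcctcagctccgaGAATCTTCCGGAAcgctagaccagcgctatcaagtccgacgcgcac
Dnaja4: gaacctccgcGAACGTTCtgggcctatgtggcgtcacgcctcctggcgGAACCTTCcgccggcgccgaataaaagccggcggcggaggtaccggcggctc
A match describes the letters of these windows and shows no binding. The motif AGATAA, searched on both strands and bound by GATA factors, was in the windows of 2 of the 51 member genes, Dnajb2 and Hspb9, and in 12.7% of all genes.

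Of the stress-induced members, Hspa1a, Hspa1b and Hspb1 showed no call in any comparison, while Dnajb1, Hsp90aa1 and Hsph1, described further on, did. Hspa1a and Hspa1b, the inducible HSP70 pair, are near-identical copies, so their probes may not tell them apart. The Hspa1a probe A_51_P117952 ranged from -0.05 to 0.36 on day 0, from -0.06 to 0.06 on day 10, from -0.01 to 0.03 on day 15 and from -0.26 to 0.13 on day 20. On day 25 the mice diverged, at -0.69, -0.02, 0.54 and 0.10, and the second Hspa1a probe showed a similar pattern (-0.62, -0.02, 0.75 and -0.05). Dim members in general had small ratios on the day 15 arrays of mice 305 and 315 and the day 25 array of mouse 310. The narrow day 15 range and the value of mouse 310 on day 25 are therefore not particular to Hspa1a. Changes of both probes from day 0 lay between -0.17 and -0.05, with SE of 0.17 and 0.19. Hspb1, a small heat shock protein that holds unfolded proteins, changed by -0.10 at day 10 (SE 0.10, adjusted p = 0.565) and also spread on day 25, from -0.21 in mouse 305 to 0.49 in mouse 315. The Hspa1b probe was well above background on 4 arrays only, and its changes of -0.08 to -0.01 had SE of 0.05. None of these misses shows that the genes were constant.

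Dnajb1, the J-domain partner that is induced along with HSP70, fell at day 10 and rose by day 25 in 1 of its 2 probes. The bright probe A_51_P153486 stood at -0.41, -0.16, -0.15 and -0.10 on day 0, at -0.65, -0.43, -0.54 and -0.52 on day 10, and at -0.02, 0.01, -0.17 and -0.26 on day 25. Every day 10 value lay below every day 0 value. It fell by 0.33 at day 10 (SE 0.10, adjusted p = 0.0341; up to 0.0977 without any of the day 0 arrays of mouse 310, 315 or 320 or the day 10 arrays of mouse 305, 315 or 320) and rose by 0.43 from day 10 to day 25 (adjusted p = 0.00327). The dimmer probe changed by 0.08 at day 10 and by -0.18 over the latter span (adjusted p = 0.0659).

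Dnaja1 encodes an abundant cytosolic J-domain partner of HSP70 and is read by 3 probes. A_52_P106429 stood at -0.56, -0.58, -0.32 and -0.23 on day 0, at -0.96, -0.54, -0.87 and -1.01 on day 10 and at -0.33, -0.21, -0.67 and -0.56 on day 25. Mouse 310 on day 10 lay among the values of both other days. The change at day 10, -0.42, missed the threshold (adjusted p = 0.0683), and the rise from day 10 to day 25 was 0.40 (SE 0.15, adjusted p = 0.0424), higher in 4 of 4 mice. That call ended without the day 10 array of mouse 305, 315 or 320 or the day 25 array of mouse 305 or 310 (up to 0.117), and under scaling between arrays (0.389). The other Dnaja1 probes, A_51_P303346 and A_52_P310225, changed by 0.13 and 0.04 over that span (adjusted p = 0.42 and 0.726).

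The constitutive HSP70 genes Hspa8 and Hspa14 fell at day 10 and rose by day 25. HSPA8 is the cytosolic HSP70 of unstressed cells. Its probe A_51_P170371 stood at -0.56, -0.54 and -0.42 on day 0 in mice 310, 315 and 320, the spot of mouse 305 having been dropped as non-uniform. On day 10 it stood at -0.97, -0.89, -0.78 and -0.91, below all 3. It fell by 0.38 (SE 0.11, adjusted p = 0.0327), but not past the threshold with the mouse as a block (0.0613) or without any of the 4 day 0 arrays or the day 10 arrays of mouse 305 or 320 (up to 0.0845). From day 10 to day 25 it rose by 0.39 (adjusted p = 0.0085). The dimmer Hspa8 probe, A_52_P12877, had no call, with a change of 0.23 over that span.

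HSPA14 works at the ribosome with DNAJC2, folding new chains as they emerge. Hspa14 stood at 0.58, 0.45, 0.52 and 0.33 on day 0, then at 0.05, 0.19, -0.03 and 0.15 on day 10 and at 0.09, 0.24, 0.01 and -0.03 on day 15, with no overlap with day 0. On day 25 it stood at 1.05, 0.49, 0.71 and 0.61. It fell by 0.38 at day 10 (SE 0.10, adjusted p = 0.0245) and by 0.39 at day 15 (adjusted p = 0.0284), and rose by 0.63 from day 10 to day 25 (1.55-fold, adjusted p = 0.000345). With Cy5 alone the changes at days 10 and 15 were -0.06 and -0.29, neither past the threshold. The day 10 call ended without the day 0 or day 10 array of mouse 305 or 315 (up to 0.0933), and the day 15 call without the day 0 arrays of mouse 305, 310 or 315 or the day 15 arrays of mouse 305, 315 or 320 (up to 0.11). Its ribosome partner Dnajc2 (A_52_P482941) fell by 0.35 at day 10 (SE 0.09, adjusted p = 0.0175; up to 0.0776 without the day 0 array of mouse 305 or the day 10 array of mouse 305 or 320) and rose by 0.32 from day 10 to day 25 (adjusted p = 0.0108). With Cy5 alone the change at day 10 was -0.12, not past the threshold. The dimmer Dnajc2 probe, A_52_P533198, changed by -0.123 at day 10 and was not called. From day 10 to day 25 that probe rose by 0.19 (adjusted p = 0.0331, up to 0.126 with 1 array left out).

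HSPA9 is the HSP70 of mitochondria. The Hspa9 probe A_51_P265869 changed by -0.25 at day 10 (adjusted p = 0.0834, and 0.0264 with the mouse as a block) and rose by 0.36 from day 10 to day 25 (adjusted p = 0.00706). The dimmer Hspa9 probe, A_52_P520687, changed by 0.034 over the latter span and was not called. The exchange factors were less uniform. One of 3 Hspa4 probes rose by 0.27 from day 10 to day 25 (adjusted p = 0.0098), and Hsph1 rose by 0.44 (adjusted p = 0.0468, and 0.0574 with the mouse as a block), a call that 12 of 20 single arrays could end (up to 0.14). On day 15 Hsph1 stood at -0.25, -0.51, -0.29 and -0.87, with 3 of 4 mice above every day 0 value, yet its change of 0.45 missed the threshold (adjusted p = 0.144). Many other members also had small ratios on the day 15 arrays of mice 305 and 315, and the part of this in the Hsph1 values was not tested. Hspa1l, an HSP70 made mainly in the testis, rose by 0.27 at day 20 (SE 0.07, adjusted p = 0.0467), but 15 of 20 single arrays could end that call (up to 0.156).

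Hspa4l held the most extreme single value. Its probe A_51_P517928, singled out after its values were seen, stood at 6.42 in mouse 305 on day 20 and between -0.06 and 0.01 in the other mice that day. That spot read 34420 in Cy5 and 10.9 in Cy3 above background, where the other 3 arrays read 121.4 to 183.4 and 117.4 to 136.8, and the scanner software did not mark it as non-uniform. With the value kept, the SE was 0.93 and no change was called. Without it, the probe fell by 0.43 from day 10 to day 25 (SE 0.08, adjusted p = 0.000992), in the direction of another Hspa4l probe, A_52_P667923, which fell by 0.30 (adjusted p = 0.00284; 0.31 with median centring).

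By the loess values the HSP90 genes split by isoform. At day 25 against day 10 all 5 probes were called, Hsp90aa1 and both probes of Hsp90b1 higher and both probes of Hsp90ab1 lower. Of all probes 31.5% were called there (17.7% higher, 13.8% lower). With median centring all 5 changes lay above 0 (1.77, 1.84, 1.85, 0.999 and 0.34). Against day 15 only the Hsp90ab1 probes were called, and against day 20 only Hsp90b1 A_52_P624149, where 19.5% and 23.2% of all probes were. Hsp90aa1, the inducible cytosolic isoform, stood at -0.63, -0.36, -0.40 and -0.69 on day 0, at -1.01, -0.78, -0.74 and -0.77 on day 10 and at -0.53, -0.43, -0.34 and -0.24 on day 25. Day 10 lay below both other days with no overlap. It fell by 0.30 at day 10 (SE 0.09, adjusted p = 0.0428; up to 0.13 without any 1 of 9 arrays) and rose by 0.44 from day 10 to day 25 (adjusted p = 0.00209).

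Hsp90ab1, the constitutive cytosolic isoform, ran the other way. Its probe A_51_P485043 was tight on day 0, at -0.35, -0.35, -0.32 and -0.29, and stood higher in every mouse on day 10 (-0.11, -0.19, 0.04 and -0.10) and day 15 (0.16, 0.08, 0.01 and -0.08). Day 25 values of -0.37, -0.21, -0.58 and -0.34 straddled those of day 0. The day 15 rise was 0.37 (SE 0.08, adjusted p = 0.00939, at most 0.0321 without any 1 array), with 0.20 from Cy5 alone and -1.04 with median centring. The fall from day 10 to day 25 was 0.28 (adjusted p = 0.0119), and 0.40 for the dimmer probe (adjusted p = 0.00924). With median centring both changes were above 0 (0.999 and 0.34).

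The mitochondrial chaperonin genes are a head-to-head pair on chromosome 1 that share 1 promoter. Hspd1 encodes the ring and Hspe1 its lid. The bright Hspd1 probe stood at -0.28, -0.24, 0.02 and -0.45 on day 0, at -0.64, -0.53, -0.62 and -0.56 on day 10 and at -0.20, 0.00, -0.28 and -0.18 on day 25, and Hspe1 at -0.03, -0.13, 0.25 and -0.32, then -0.35, -0.20, -0.42 and -0.35, then 0.14, 0.18, 0.01 and 0.09. In both genes every day 10 value lay below every day 25 value. Hspd1 fell by 0.35 at day 10 (SE 0.09, adjusted p = 0.0202; up to 0.0684 without the day 0 or day 10 array of mouse 305 or 315), while the change of Hspe1 was -0.27 (adjusted p = 0.0663, and 0.0421 with the mouse as a block). From day 10 to day 25 they rose by 0.42 and 0.43 (adjusted p = 0.00239 and 0.00219). The dimmer Hspd1 probe showed no call. The shared promoter holds 2 overlapping matches to the 3-unit heat shock element, capitals in the 100 bases before the Hspe1 start (chr1:55088048-55088147, plus strand, GRCm38.p6), shown because both genes read from it in opposite directions.
Hspe1: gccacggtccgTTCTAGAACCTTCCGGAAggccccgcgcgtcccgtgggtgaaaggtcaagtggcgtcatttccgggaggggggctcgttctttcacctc

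Subunits of the CCT ring work together in 1 complex. Of 9 probes for 8 genes, 2 rose (Cct2, Cct5) and 2 fell (Cct7, Cct8) at day 25 against day 10, where 31.5% of all probes were called. Cct5 stood at 0.04, -0.01, 0.05 and -0.35 on day 0, at -0.38, -0.30, -0.43 and -0.35 on day 10 and at 0.23, 0.29, 0.11 and 0.17 on day 25, above all earlier values. It fell by 0.30 at day 10 (adjusted p = 0.0314; up to 0.117 without the day 0 arrays of mouse 305, 310 or 315 or the day 10 arrays of mouse 305, 315 or 320) and rose by 0.56 from day 10 to day 25 (SE 0.08, adjusted p = 0.000201). Cct2 fell by 0.31 at day 15 (adjusted p = 0.0275; up to 0.119 without the day 0 array of mouse 305 or 315 or the day 15 array of mouse 315 or 320) and rose by 0.33 from day 10 to day 25 (adjusted p = 0.00588). The dimmer Cct2 probe, A_52_P369232, changed by 0.001 at day 15 and by 0.101 over the latter span, neither called. At day 15 the change of Cct5 was -0.27 (adjusted p = 0.0756, and 0.022 with the mouse as a block). Cct7, named after its values were seen, fell by 0.77 from day 10 to day 25 (SE 0.17, adjusted p = 0.00222), and Cct8 by 0.24 (adjusted p = 0.0323; up to 0.126 without the day 10 array of mouse 315 or 320 or the day 25 array of mouse 305 or 315). With median centring both were above 0 (0.49 and 0.86). The Cct3 probe changed by -0.09 (adjusted p = 0.45).

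Of the endoplasmic reticulum chaperones, Dnajb11 and 1 Dnajc3 probe fell at day 10, and Hsp90b1, Dnajb11 and Dnajc3 rose from day 10 to day 25. HSP90B1, HSPA5, DNAJB11 and DNAJC3 fold secreted and membrane proteins there or serve HSPA5. The Hsp90b1 probe A_52_P590546 stood at -0.01, -0.13, -0.10 and -0.77 on day 0, at -0.75, -0.51, -0.56 and -0.55 on day 10 and at 0.10, 0.23, -0.23 and -0.03 on day 25. Mouse 320 alone was already low on day 0, and the change at day 10, -0.34, missed the threshold (adjusted p = 0.113). Both probes rose from day 10 to day 25, by 0.61 (SE 0.14, 1.53-fold, adjusted p = 0.00279) and 0.54 (adjusted p = 0.00416). Dnajb11 stood at 0.24, -0.08, 0.06 and -0.22 on day 0 and at -0.51, -0.28, -0.37 and -0.41 on day 10, with no overlap. It fell by 0.40 (SE 0.09, adjusted p = 0.00884), a call that stayed under an adjusted p of 0.0408 without any 1 array, and rose by 0.29 from day 10 to day 25 (adjusted p = 0.018, and 0.057 without mouse 305's day 10 array). The Dnajc3 probe A_52_P329881 fell by 0.27 at day 10 (adjusted p = 0.0404; up to 0.163 without any of 8 single arrays), with a change of -0.011 from Cy5 alone. Of 4 Dnajc3 probes, 2 rose from day 10 to day 25, by 0.27 and 0.26 (adjusted p = 0.00334 and 0.0224, the latter up to 0.0804 without the day 10 array of mouse 315 or 320 or the day 25 array of mouse 315).

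Hspa5, the HSP70 of the endoplasmic reticulum, gave no call over all arrays. On day 10 mouse 305 stood at 0.73 and the others at -0.77, -0.64 and -0.57. Its day 0 values were -0.21, -0.52, -0.25 and -0.64, and its day 25 values -0.41, 0.04, -0.20 and -0.04. The change from day 10 to day 25 was 0.16 (adjusted p = 0.616), and 0.51 (adjusted p = 0.0111) without mouse 305's day 10 array. The ER stress element, CCAAT and CCACG with 9 bases between them on either strand, was in the windows of 3 of the 51 member genes and in 0.14% of all genes. The 3 are Hspa5 (chr2:34771970-34772069, plus strand), Hsp90b1 (chr10:86705465-86705564, minus strand) and Dnajc3 (chr14:118937812-118937911, plus strand). The bases from 120 to 21 before each start follow, with the element in capitals.
Hspa5: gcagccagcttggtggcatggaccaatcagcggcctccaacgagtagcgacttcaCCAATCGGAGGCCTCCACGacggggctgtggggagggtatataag
Hsp90b1: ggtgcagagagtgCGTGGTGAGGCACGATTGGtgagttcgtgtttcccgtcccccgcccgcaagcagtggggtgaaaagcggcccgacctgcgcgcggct
Dnajc3: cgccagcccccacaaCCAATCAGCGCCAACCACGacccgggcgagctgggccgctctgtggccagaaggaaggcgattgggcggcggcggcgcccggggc

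Among the DnaJ C proteins, which differ widely outside the J domain, 9 of 33 probes rose and 2 fell at day 25 against day 10, where 17.7% of all probes were higher and 13.8% lower. Dnajc9, a histone chaperone of dividing cells, stood at 0.32, 0.34, 0.50 and -0.19 on day 0, at -0.23, -0.13, -0.28 and -0.13 on day 10, at -0.14, -0.18, -0.31 and -0.45 on day 15 and at 0.35, 0.44, 0.28 and 0.56 on day 25. Mouse 320's day 0 value lay among those of days 10 and 15. This probe, A_51_P162471, fell by 0.435 at day 10 (adjusted p = 0.0208), a call that any of 5 single arrays could end (up to 0.0742). It fell by 0.51 at day 15 (SE 0.11, adjusted p = 0.011, and 0.0504 without mouse 320's day 15 array) and rose by 0.60 from day 10 to day 25 (adjusted p = 0.001). The dimmer Dnajc9 probe changed by -0.148 at day 10 and -0.104 at day 15, neither called. From day 10 to day 25 it rose by 0.33 (adjusted p = 0.00235). The 2 probes that fell, named after their values were seen, both belong to Dnajc8, a splicing-associated protein, by 0.42 and 0.32 (adjusted p = 0.00115 and 0.00419), and both stood above 0 with median centring (0.84 and 0.83). Dnajb12, a membrane protein of the endoplasmic reticulum, fell by 0.27 at day 20 in 1 of its 2 probes (adjusted p = 0.0279). That call ended without the day 0 arrays of mouse 305 or 310 or the day 20 arrays of mouse 310, 315 or 320 (up to 0.114). The other probe, A_52_P185753, changed by 0.063 and was not called. Of 27 genes with several probes, none had calls in opposite directions in any comparison. At day 25 against day 10, 18 of them had a called probe and 6 had all probes called. At day 10, 7 had a called probe and 0 had all probes called by limma, so in those 7 genes the calls rested on part of the gene's probes.

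The arrays of days 15, 20 and 25 were scanned on the same day, and comparisons among them were added after the data were seen. Each of the 5 comparisons above takes in arrays of day 0 or day 10, which lie outside that set. The part of scanning in the results was not tested. Day 20 against day 15 called 0 members by limma, against 0.043% of all probes (0.0382% higher, 0.00478% lower), with 20 members at an unadjusted p under 0.05. Day 25 against day 15 called 24 members, 13 higher and 11 lower (19.5% of all probes, 11.2% higher and 8.26% lower), and day 25 against day 20 called 22, 8 higher and 14 lower (23.2%, 11% higher and 12.2% lower). These comparisons share the day 25 arrays. In both, the 3 Dnajb6 probes fell, by 0.94, 0.95 and 1.23 against day 15 and by 0.81, 0.84 and 0.997 against day 20. Dnajb2 fell by 1.61 and 1.21, and Dnaja4 by 0.99 and 0.93, with adjusted p between 8.69e-05 and 0.00371 over these genes. Cct5 rose by 0.53 and 0.35, and Dnajc9 (A_51_P162471) by 0.68 and 0.47. By the loess values days 20 and 25 did not overlap in Dnaja4, Dnajb2 and the 3 Dnajb6 probes. With median centring none of these falls was called. Against day 15 the change was then 0.04 for Dnaja4, -0.47 for Dnajb2 and 0.22, 0.13 and -0.08 for Dnajb6 A_51_P117439, A_52_P630493 and A_52_P276935, and against day 20 it lay between -0.55 and -0.13 over the 5 probes. Scaling between arrays also ended the calls against day 20.

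Partners of the chaperones were taken from lists that hold no member. Of 32 measured heat shock factors and HSP70 or HSP90 co-chaperones, 5 rose and 2 fell at day 10, where 4.08% of all probes were higher and 7.12% lower. At day 25 against day 10, 7 rose and 6 fell, beside 17.7% and 13.8% of all probes. Bag1, an exchange factor for HSP70, rose by 0.83 (SE 0.20, adjusted p = 0.0157) and then fell by 1.16 (adjusted p = 0.000593). With median centring its rise turned to -0.57 and its later change was -0.005. Hsf1, the main heat shock factor, rose by 0.48 at day 10 (adjusted p = 0.0279) and 0.69 at day 15 (adjusted p = 0.0048), but its day 10 change was -0.25 from Cy5 alone and -1.08 with median centring, and its day 15 change 0.39 and -0.77. Ppid, an HSP90 co-chaperone, fell by 0.42 at day 10 (adjusted p = 0.00555) and rose by 0.37 from day 10 to day 25 (adjusted p = 0.00351).

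In the endoplasmic reticulum list 1 of 24 genes rose and 6 fell at day 10 (4.08% and 7.12% of all probes), and 10 rose and 1 fell at day 25 against day 10 (17.7% and 13.8% of all probes). Canx and Herpud1 rose by 0.49 and 0.47 over the latter span (adjusted p = 0.00618 and 0.00125), and Syvn1, a ligase that removes misfolded proteins, by 0.75 (adjusted p = 0.000393). The 1 gene that fell was Ppp1r15a, which reverses the translation stop of the stress response, by 1.14 (adjusted p = 0.000463). Of 11 mitochondrial import and quality control genes, 4 rose and 0 fell by limma over that span (0 lower also at an unadjusted p under 0.05), against the same 17.7% and 13.8%, with Tomm20 up by 0.58 (adjusted p = 0.000172). Of 11 prefoldin and CCT partner genes, 3 rose and 1 fell, beside those shares, Vbp1 by 0.87 (adjusted p = 0.000384; 0.34 with median centring).

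Blood cell markers moved over the same days. The counts of markers called stand beside 4.08% of all probes higher and 7.12% lower at day 10, and 17.7% higher and 13.8% lower at day 25 against day 10. The summed level of 10 red cell and reticulocyte genes started at -0.56 to 0.73 on day 0. It reached 0.72 to 0.99 on day 10 and 0.42 to 1.34 on day 15, then 0.09 to 0.49 on day 20 and -0.70 to -0.19 on day 25. Of 12 such genes, 4 rose at day 10 and 12 fell at day 25 against day 10. Dnajb6, Dnaja4 and Dnajb2 also stood lowest in the mean on day 25, with Dnaja4 highest on day 10 and the others on day 15, and the part of red cell RNA in this was not tested. The summed level of 14 mature neutrophil genes was 0.50 to 1.60 on day 0, -0.66 to -0.07 on day 10, -0.64 to -0.08 on day 15, -1.09 to -0.40 on day 20 and -0.11 to 0.58 on day 25, and 9 of the 14 fell at day 10. The summed level of 10 T cell genes ranged from -0.26 to -0.05 on day 10 and 0.08 to 0.39 on day 25, with 5 of 10 rising between them. That of 10 B cell genes ranged from -0.71 to -0.45 and -0.10 to 0.43, also with 5 of 10 rising. Hspa14, Cct5, Dnajc9, Hspd1 and Hsp90b1 rose over the same span, and the part of these cells in it was not tested. Of 10 monocyte genes 1 rose at day 25 against day 10 and of 11 platelet genes 3 fell. The summed level of 10 cytotoxic cell genes ranged from -0.88 to 0.70 on day 10 and from -0.66 to 0.48 on day 25. That of 6 liver and hepatoma genes lay between -0.11 and 0.32 over all days.

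**Figure D4:**
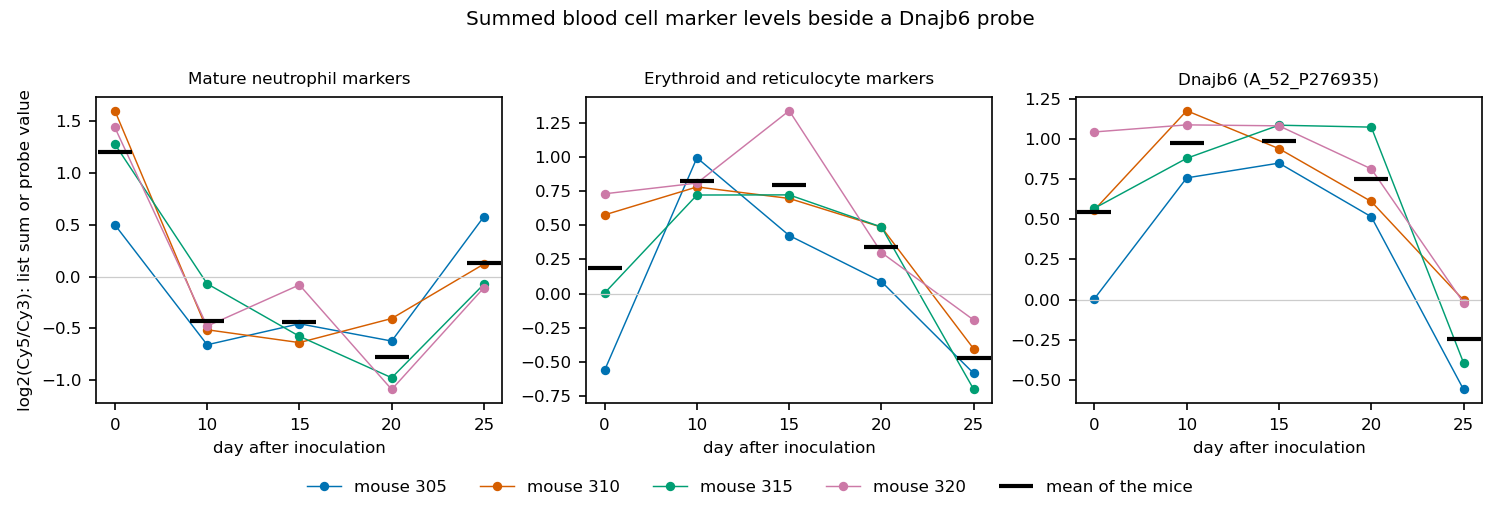
Summed log2(Cy5/Cy3) of 14 mature neutrophil genes and of 10 red cell genes, and the value of a Dnajb6 probe, by day (days spaced as categories), 1 line per mouse and a black bar for the mean. The red cell sum lies at 0.72 to 0.99 on day 10 and at -0.70 to -0.19 on day 25, and the Dnajb6 probe falls over the same days.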

How the data were processed

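Blood RNA of 4 mice on 5 days was read on 20 2-colour arrays. The deposited scanner files, made with Agilent Feature Extraction 9.1.3.1 per the submitters' processing notes, give spot intensity in each channel, and the deposited series table holds the software's log10 ratios, equal to those of the scanner files in 100% of values. From the intensities, background was corrected by normexp (offset 50) and each array normalized by loess, control spots having weight 0. Non-uniform spots were dropped and spots of a probe averaged.

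Probes were fitted with limma 3.58.1 (R 4.3.3) to the 5 day means over all 20 arrays, two-sided, with Benjamini-Hochberg adjustment. No mouse term was used. The mouse numbers are taken as the same animals on every day. The mean correlation of same-mouse deviations was 0.085 over 40 pairs (-0.42 to 0.52). Over 120 pairs of different mice it was -0.029 (-0.55 to 0.47). These ranges overlap, so the correlation cannot show that the animals are the same. Depth is not given by arrays, and 4 mice a day limit the precision. On simulated data the fit recovered 82 of 100 changes of 0.5 and 97 of 100 of 1.0. Smaller changes were not simulated, and the falls called at day 10 were of 0.273 to 0.435. Recovery at that size is therefore not known.

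Gene symbols were updated through RefSeq accessions, symbols and synonyms. Every probe kept of 19 well known members was followed (Hspa1a, Hspa1b, Hspa8, Hspa5, Hspa9, Hsp90aa1, Hsp90ab1, Hspd1, Hspe1, Hspb1, Hsph1, Hspa4, Dnaja1, Dnajb1, Dnajb6, Dnajc3, Cct2, Cct3, Cct8), with up to 5 rising and 5 falling called probes in each of the 5 comparisons that moved the same way in every mouse, and up to 3 each way per list of other genes. The members, lists and rules were chosen with earlier results of these data known. Alternatives covered centring, Cy5 alone (Aquantile), scaling, the scanner's ratio, background, brightness filters, 1 probe per gene, mouse blocks, left-out arrays and fits to the days compared. A co-chaperone gene of these lists is not reported here.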

Additional observations from a re-analysis of the deposited data

Results flagged for a closer look

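In 14 of 228 groups of 4 mice among the named probes, 1 mouse stood apart from the other 3 by Dixon's test, where chance alone gives about 5%. On day 0 these were Hspa1a (A_51_P117952) at 0.36 in mouse 310, the others -0.04 to 0.02; Hspa1l at 0.08 in mouse 320, the others 0.01 to 0.02; Hsp90b1 (A_52_P590546) at -0.77 in mouse 320, the others -0.13 to -0.01; and Cct5 at -0.35 in mouse 320, the others -0.01 to 0.05. On day 10 Cct2 stood at -0.12 in mouse 315, the others -0.19 to -0.18. Mouse 305 stood apart that day in Hspa5, at 0.73 against -0.77 to -0.57, and in Hsp90aa1, at -1.01 against -0.78 to -0.74. Hspa1l stood at 0.24 in mouse 320, against -0.01 to 0.01. On day 15 Hsp90ab1 (A_52_P257204) was at -0.11 in mouse 310, against 0.00 to 0.02, Dnaja4 at 0.25 in mouse 305, against 0.60 to 0.65, and Hspa1l at 0.17 in mouse 310, against 0.03 to 0.04. On day 20 mouse 305 stood apart in Dnaja1 (A_52_P106429), at -0.36 against -0.94 to -0.85, and in Dnajb6 (A_52_P630493), at 0.11 against 0.44 to 0.51, and mouse 320 in Hspa8 (A_52_P12877), at -1.04 against -0.70 to -0.64.

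The change from day 0 differed between days 25 and 10 for 41 chaperone probes by limma. Day 0 cancels in that difference, so these are the same 41 calls of day 25 against day 10 given above. Of all probes 31.5% were called there.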

How the results depend on the processing

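The cause of the differences below was not tested. Chaperone probes called under each setting, in the order day 10, day 15, day 20 and day 25 against day 0, against 14, 6, 3 and 0, were 57, 0, 0 and 0 with median centring, 26, 26, 24 and 19 with Cy5 alone, 10, 23, 2 and 1 with scaling between arrays, 30, 44, 11 and 2 with the scanner's log ratio, 40, 36, 14 and 12 with no background correction, 9, 4, 2 and 0 with offset 10, and 8, 5, 1 and 0 with no brightness filter. They were 16, 7, 3 and 1 with at least 16 bright arrays, 14, 4, 2 and 1 with 1 probe per gene, 3, 4, 0 and 0 with only the days compared, and 16, 6, 3 and 1 with the mouse as a random block. With the mouse as a fixed replicate block they were 18, 9, 4 and 2, with 40 at day 25 against day 10 and 42 for any change; the block changed no call of a named probe beyond the 11 given with the results. At day 25 against day 10 the count of 41 fell to 18 with scaling between arrays and lay between 30 and 58 elsewhere. The count for any change, 42, was 25 with median centring and 64 with no background correction. Leaving out 1 array gave 3 to 23 at day 10, 2 to 13 at day 15, 0 to 15 at day 20, 0 to 15 at day 25, 32 to 44 at day 25 against day 10 and 24 to 47 for any change. Counts of all probes shifted too. Across settings they moved by more than a ratio of 3 to 2 in 51 cases and not in 45, beside 43 and 64 for chaperone counts. With 1 array left out these were 53 and 107, beside 35 and 145.

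Named probes turned direction in 28 cases. With median centring these were, at day 10, Dnajb6 A_51_P117439 (-0.80), Dnaja4 (-0.55), Hspa5 (-1.34), Hsp90ab1 (-1.26 and -0.69), Dnajb1 A_52_P171663 (-0.58) and Cct8 (-1.21), and at day 15 Dnajb6 (-0.68 and -0.78) and Hsp90ab1 (-1.04), and at day 20 Dnajb6 (-0.33). At day 25 against day 10 they were Dnajb6 (0.34, 0.042 and 0.32), Hspa4 A_51_P200477 (0.63), Hsp90ab1 (0.999 and 0.34), Hspd1 A_52_P1172972 (0.60), Cct8 (0.86) and Dnajb12 (0.84). With Cy5 alone they were Dnajb6 A_51_P117439 (-0.30, -0.001 and -0.23 at days 10, 15 and 20), Cct2 A_52_P369232 (-0.18) and Hsp90b1 A_52_P624149 (-0.43) at day 15, Hspa4 A_51_P460676 (-0.27) at day 20, and Hspa4 A_51_P200477 (0.18) at day 25 against day 10. With the scanner's ratio Cct2 A_52_P369232 was at -1.35 at day 15. Dim probes limit what can be seen: no call at day 10 fell on the dimmer 49 members.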
